A study of Homo sapiens with 6 samples.

Results

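Matrix metalloproteinases (MMPs) and their tissue inhibitors (TIMPs) were followed in LX-2, a line of immortalised hepatic stellate cells of human origin and wild-type genotype. The genes were taken by name: 10 symbols were looked up in the deposited table of 16569 genes, and 9 of them had a row, namely the proteinase genes MMP1, MMP2, MMP3, MMP10, MMP14, MMP16 and MMP19 and the inhibitor genes TIMP1 and TIMP3. TIMP2 was not analysed here. Cells were grown with 2% fetal bovine serum, kept without serum for 18 h and then incubated for 24 h with either IGFBP-7 protein at 100 ng/mL or phosphate-buffered saline (PBS), with 3 libraries in each group. IGFBP-7 is a secreted member of the insulin-like growth factor binding protein family. Whether the replicates of a group were separate cultures is not stated in the labels, so the p-values measure a spread that may be technical. The cells are a single line and stand for stellate cells only as far as that line does.

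MMPs are zinc-dependent proteinases that are made as inactive precursors and cut collagens, fibronectin, proteoglycans and other matrix proteins once the propeptide is removed or displaced. TIMPs bind the active site of MMPs and block it, so the turnover of matrix depends on both families. Stellate cells that have become myofibroblasts are known as a main source of MMP2 and TIMP1 in the injured liver, and TIMP1 is known there for limiting the breakdown of scar collagen. Transcript levels carry no information on secretion, precursor activation or enzyme activity, none of which was measured.

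MMP1, MMP3 and MMP10 lie side by side on the minus strand of human chromosome 11, in a cluster that the GENCODE 29 annotation orders as MMP7, MMP20, MMP27, MMP8, MMP10, MMP1, MMP3, MMP12 and MMP13. MMP2 is on chromosome 16, MMP14 on 14, MMP16 on 8, MMP19 on 12, TIMP1 on X and TIMP3 on 22. Upstream sequences were available for 4 of the 9 genes, MMP10, MMP14, TIMP1 and TIMP3, from RefSeq on GRCh38.p14. They are shown, with MMP7 of the same cluster, because MMP7 and MMP10 belong to the chromosome 11 cluster while MMP14, TIMP1 and TIMP3 lie elsewhere; all 5 had higher values with IGFBP-7, so they do not contrast 2 directions. Each runs 5′ to 3′ on the gene's own strand and ends just before the first annotated exon of the gene, and capitals mark matches to an AP-1 motif (TGANTCA), an Sp1 motif (GGGCGG) or a TATA box (TATAAA), searched on both strands.
MMP7, chr11:102530754-102530997, minus strand: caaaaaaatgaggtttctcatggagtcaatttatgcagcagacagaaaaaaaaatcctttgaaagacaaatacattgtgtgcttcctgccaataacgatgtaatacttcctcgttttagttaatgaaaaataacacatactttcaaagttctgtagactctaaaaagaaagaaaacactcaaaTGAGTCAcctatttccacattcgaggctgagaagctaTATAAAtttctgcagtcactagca
MMP10, chr11:102780629-102780878, minus strand: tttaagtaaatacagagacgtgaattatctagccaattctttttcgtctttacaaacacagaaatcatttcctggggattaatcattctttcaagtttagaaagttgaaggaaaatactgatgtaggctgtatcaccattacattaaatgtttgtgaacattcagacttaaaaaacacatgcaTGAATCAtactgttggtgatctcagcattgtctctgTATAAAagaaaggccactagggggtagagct
MMP14, chr14:22836335-22836556, plus strand: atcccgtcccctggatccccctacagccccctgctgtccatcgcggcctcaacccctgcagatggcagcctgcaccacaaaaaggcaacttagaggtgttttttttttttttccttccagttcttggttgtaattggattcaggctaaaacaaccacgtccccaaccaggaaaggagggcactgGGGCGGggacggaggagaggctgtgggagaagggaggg
TIMP1, chrX:47582186-47582312, plus strand: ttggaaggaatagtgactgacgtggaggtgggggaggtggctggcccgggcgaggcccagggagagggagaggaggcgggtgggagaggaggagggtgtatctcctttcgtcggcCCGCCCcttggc
TIMP3, chr22:32801455-32801700, plus strand: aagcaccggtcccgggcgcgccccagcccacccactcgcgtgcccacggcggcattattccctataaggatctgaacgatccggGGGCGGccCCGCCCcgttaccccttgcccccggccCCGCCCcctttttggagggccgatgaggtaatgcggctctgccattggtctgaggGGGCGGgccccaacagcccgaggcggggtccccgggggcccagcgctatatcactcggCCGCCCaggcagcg

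The windows of MMP7 and MMP10 are AT-rich, with a GC content of 33.6% and 34.4%, and each holds 1 AP-1 match and 1 TATA box. Of 35116 promoters read over the same length as MMP10, 6.57% hold an AP-1 match and 10.7% a TATA box. The AP-1 match of MMP7 ends 54 bases before the first exon and that of MMP10 ends 60 bases before it. The windows of MMP14, TIMP1 and TIMP3 have a GC content of 56.3%, 67.7% and 72.0%, hold no AP-1 match or TATA box, and carry 1, 1 and 5 Sp1 matches. An Sp1 match is common: 42.2% of all promoters hold it over the length read for TIMP3, and 21.8% over the shorter length read for TIMP1. A match is a string of letters in a window and says nothing of which factor was bound.

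Reads recovered from the deposited normalized counts, summed over the 16569 genes, numbered 45242993 to 55479940 with IGFBP-7 and 40599380 to 43537923 with PBS. These sums are the library totals used for scaling below, and they leave out reads of genes without a row. The detection limit of a library, set at 3 fragments, corresponds to 2.54 to 3.20 normalized counts. In the test described below, 31.3% of all tested genes rose and 29.2% fell, and these shares stand beside each count of markers here. Of 11 stellate markers tested, 6 rose, 3 fell and 2 did not pass. Their list summed to 223212 to 243079 normalized counts with IGFBP-7 and 71106 to 75612 with PBS. Most of the sum came from COL1A1 in both groups. PDGFRB averaged 8224 with IGFBP-7 and 3055 with PBS, and COL1A1 198928 and 49614, whereas RELN averaged 71.8 and 529, THY1 and HAND2 also fell, DCN averaged 22.7 and 33.6, and the muscle-type filament gene DES was at or near 0. Of 7 epithelial and cholangiocyte markers with a row, EPCAM, KRT19 and CDH1 were near 0 in both groups, with 6.13 and 2.82 for EPCAM, but KRT8 averaged 22821 and 14472, KRT18 16472 and 12162, SOX9 1193 and 852 and KRT7 469.6 and 399.6. The first 3 of these rose, and the list summed to 37692 to 43785 with IGFBP-7 and 27497 to 28318 with PBS. Of 6 endothelial markers, CDH5 was at 0 in the IGFBP-7 libraries and averaged 9.72 with PBS. PECAM1 averaged 113 and 61.5 and TEK 224 and 138, both rises, the other 3 tested did not pass, and the list summed to 435 to 504 with IGFBP-7 and 324 to 359 with PBS. The 7 hepatocyte markers summed to 219 to 260.0 and 242 to 291, nearly all from SERPINA1 (227 and 252), with 1.81 and 0.712 for ALB. The 7 macrophage and leukocyte markers summed to 1529 to 1757 with IGFBP-7 and 3309 to 3414 with PBS, mostly from CD68, with 4.67 and 5.59 for PTPRC, and the 3 of them that could be tested fell. The libraries come from a single line, so these sums are not counts of cell types. A change in all cells and a change in part of them cannot be told apart in such bulk samples. The part of these marker differences in the results below was not tested.

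With IGFBP-7 the cluster genes MMP1 and MMP3 were 4.33-fold and 5.43-fold lower, MMP2, MMP14, TIMP1 and TIMP3 rose, MMP19 fell and MMP16 did not pass the test. Of the 9 genes, 8 reached a mean of 10 normalized counts over the 6 libraries and were tested with limma on log2(normalized count + 1), with p-values adjusted over 11872 genes. Of these 8, 4 rose and 3 fell. Changes were common in these cells: 60.6% of all tested genes changed, 31.3% higher and 29.2% lower, so a share of 7 in 8 is not by itself particular to the family. The groups did not overlap in 7 of the 8 genes, against 63.5% of all tested genes. The median log2 change of the 8 genes was 0.02, as was that of all tested genes. When libraries were scaled to their totals instead, the median of all tested genes moved by -0.14 and 55.6% changed, 20.5% higher and 35.1% lower. Under that scaling the same 4 genes rose, the same 3 fell, and MMP16 was also called lower.

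**Figure D1:**
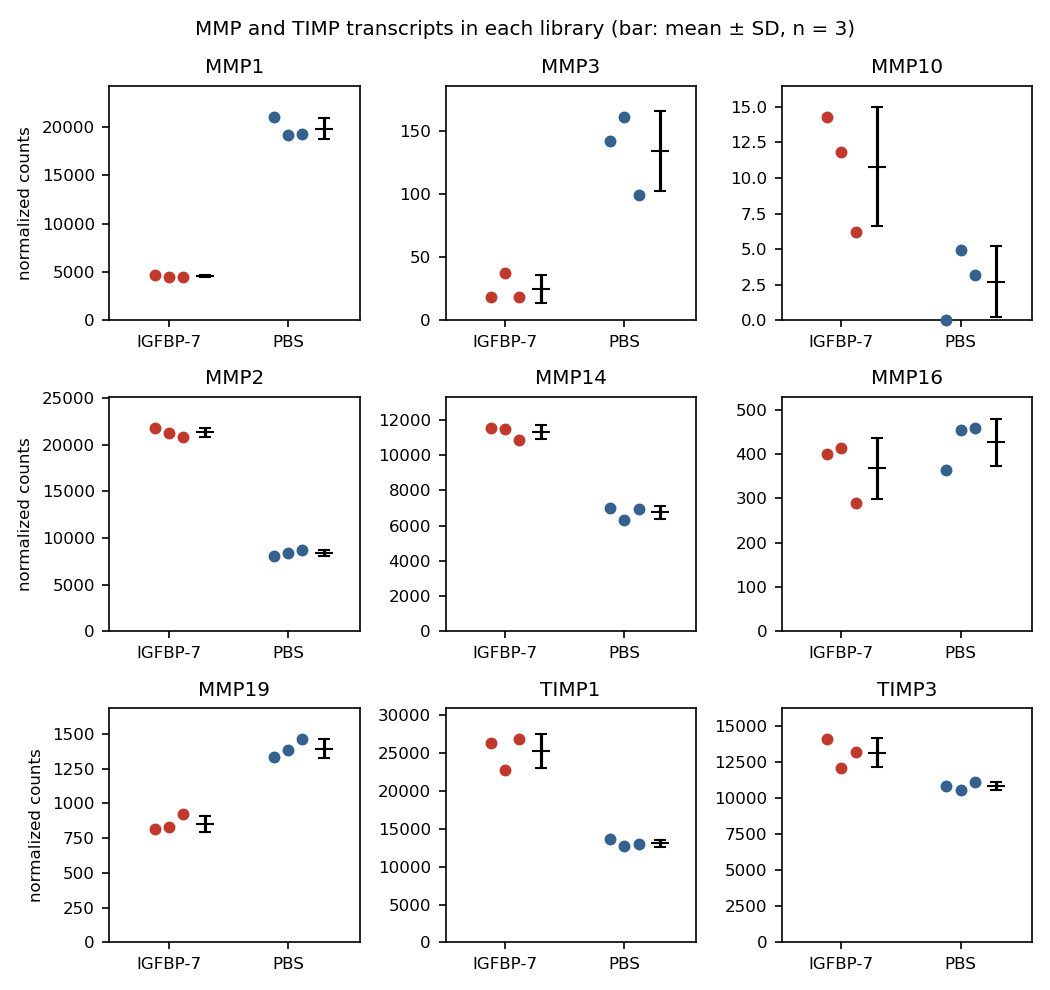
Normalized counts of the 9 genes in each library, 3 with IGFBP-7 (left) and 3 with PBS (right) in each panel, on a linear axis from 0; the black bar is the mean ± SD. MMP1 lies between 4484 and 4722 with IGFBP-7 and between 19151 and 21066 with PBS, and MMP16 is the gene whose groups overlap.

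MMP1 (ENSG00000196611) encodes interstitial collagenase, which makes the first cut in fibrillar collagens. It measured 4722, 4484 and 4508 normalized counts in the IGFBP-7 libraries, against 21066, 19151 and 19274 in the PBS libraries. The highest IGFBP-7 library lay far under the lowest PBS library. The log2 change was -2.12 ± 0.05 (SE; limma adjusted p = 1.76e-38), which is 4.33-fold lower, and 1.20% of tested genes had a more negative change.

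MMP3 (ENSG00000149968) encodes stromelysin-1, which cuts proteoglycans and fibronectin and can activate the precursors of other MMPs, among them pro-MMP1. It was weakly expressed, at 18.4, 37.3 and 18.6 normalized counts with IGFBP-7 and 142, 161 and 99.3 with PBS. These values rest on 80 fragments in the IGFBP-7 libraries and 395 in the PBS libraries, and the groups did not overlap. Its log2 change of -2.44 ± 0.29 (limma adjusted p = 4.42e-10) is 5.43-fold lower, with a 95% interval of -3.03 to -1.85.

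MMP10 (ENSG00000166670) encodes stromelysin-2, a close relative of MMP3 with a similar range of substrates. It stayed under the level set for testing, with 14, 14 and 6 fragments in the IGFBP-7 libraries and 0, 5 and 3 in the PBS libraries. The 3 IGFBP-7 libraries lay above the 3 PBS libraries, and the total of 34 fragments against 8 gives a ratio of 3.98, and counting error alone allows 1.81 to 9.94 (95% interval). Fitted without the filter on low values, its log2 change was 1.94 ± 0.71 (limma adjusted p = 0.0252 over all 16569 genes). Its neighbours MMP1 and MMP3 were lower with IGFBP-7, and MMP10 was not.

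The other genes of the cluster were also read. MMP7, which encodes matrilysin, a small MMP without the hemopexin domain, had the largest rise of the 17 tested MMP and TIMP genes. It measured 731, 624 and 790 normalized counts with IGFBP-7, against 47.4, 37.3 and 27.8 with PBS, a log2 change of 4.24 ± 0.18 (limma adjusted p = 1.20e-26). It ranked 27 among all tested genes by the size of the rise. MMP13, which encodes collagenase-3, was at 0 in the 3 PBS libraries and had 14, 22 and 14 fragments with IGFBP-7, at least 15.6-fold higher when 3 fragments are allowed over the PBS group. MMP20 had 4, 0 and 4 fragments in the IGFBP-7 libraries and 0 over the PBS group. MMP8 had 0 over the IGFBP-7 group and 2, 0 and 8 in the PBS libraries. MMP12 had 0, 0 and 4 with IGFBP-7 and 0, 0 and 2 with PBS. For each of these genes the groups overlapped, so no direction is read from them. Genes of the cluster differed in direction, with MMP1 and MMP3 lower and MMP7 higher. MMP1 had the highest level per kilobase of exon among those with a row, in both groups. Among the flanking genes, the apoptosis inhibitor gene BIRC3 fell by 1.61 ± 0.07 on the log2 scale, and DCUN1D5, which encodes a factor of cullin neddylation, rose by 0.70 ± 0.07. Apart from MMP1, MMP3 and MMP10, 13 genes in or beside the cluster were listed, of which 7 had a row and 3 were tested. The flanking genes YAP1, BIRC2, TMEM123 and DYNC2H1 were not analysed here.

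MMP2 (ENSG00000087245) encodes gelatinase A, which cuts denatured collagen and basement membrane type IV collagen. It measured 21841, 21267 and 20846 normalized counts with IGFBP-7, against 8132, 8388 and 8706 with PBS. The spread within each group was a small part of the distance between the groups. This is a log2 change of 1.34 ± 0.04 (limma adjusted p = 2.43e-31), a 2.54-fold rise, the largest among the 8 tested genes. MMP14 (ENSG00000157227) encodes the membrane-type MMP that cuts pro-MMP2 at the cell surface and also cuts fibrillar collagen. It measured 11551, 11499 and 10848 normalized counts with IGFBP-7 and 6977, 6323 and 6954 with PBS, again with no overlap. The log2 change was 0.74 ± 0.05 (limma adjusted p = 8.24e-19), a 1.67-fold rise.

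MMP16 (ENSG00000156103) encodes another membrane-type MMP able to activate pro-MMP2. Its values were 399, 413 and 289 normalized counts with IGFBP-7 and 365, 455 and 459 with PBS, and the groups overlapped. The log2 change was -0.22 ± 0.13 (limma adjusted p = 0.122), with a 95% interval of -0.48 to 0.03, so a fall of up to about that lower bound is within the error. It passed the test when libraries were scaled to their totals (-0.37 on the log2 scale, adjusted p = 0.0132), without IGFBP-7 replicate 2 (-0.32, adjusted p = 0.0427) and without PBS replicate 1 (-0.33, adjusted p = 0.0378), while without IGFBP-7 replicate 3 the change was -0.06. MMP19 (ENSG00000123342) encodes a secreted MMP with basement membrane substrates. It measured 813, 830 and 921 normalized counts with IGFBP-7 and 1330, 1380 and 1465 with PBS, and every IGFBP-7 library was under every PBS library. It had a log2 change of -0.70 ± 0.08 (limma adjusted p = 9.39e-11), 1.63-fold lower.

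TIMP1 (ENSG00000102265) encodes a secreted inhibitor of most MMPs that also acts as a survival factor for stellate cells. It measured 26301, 22753 and 26937 normalized counts with IGFBP-7, against 13604, 12691 and 12942 with PBS. IGFBP-7 replicate 2 was the lowest of its group and still far above the PBS libraries. Its log2 change was 0.95 ± 0.05 (limma adjusted p = 1.29e-23), a 1.93-fold rise. TIMP3 (ENSG00000100234) encodes the inhibitor that binds to the matrix and also blocks ADAM proteinases such as ADAM17. Its values were 14128, 12115 and 13172 with IGFBP-7 and 10838, 10586 and 11141 with PBS, which do not overlap but lie closer together. The log2 change was 0.27 ± 0.05 (limma adjusted p = 2.83e-06), a 1.21-fold rise. After scaling to library totals it was 0.13 (adjusted p = 0.00965), the smallest change among the 7 called genes. TIMP4, which encodes the fourth inhibitor of the family, was at the limit of detection, with 16 fragments over the IGFBP-7 group and 10 over the PBS group.

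In the GENCODE 29 annotation TIMP1 and TIMP3 lie inside the synapsin genes SYN1 and SYN3, on the opposite strand. SYN1 averaged 84.3 ± 6.74 normalized counts with IGFBP-7 and 21.3 ± 14.2 with PBS, and SYN3 16.0 ± 4.64 and 13.1 ± 3.11 (SD, n = 3 each), which is small beside the 2 inhibitor genes. The pseudogene WTAPP1 overlaps MMP1, MMP3 and MMP10, MMP2-AS1 and AC007336.2 overlap MMP2, AC090578.1 overlaps MMP16 and TMEM198B overlaps MMP19, all on the opposite strand. AC007336.3 overlaps MMP2 on the same strand, which strand-aware counting would not separate. None of these genes was analysed here. The kit keeps the strand of the RNA, but the strand setting used in counting is not stated in the labels or the table, so a contribution from them cannot be told apart.

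**Figure D2:**
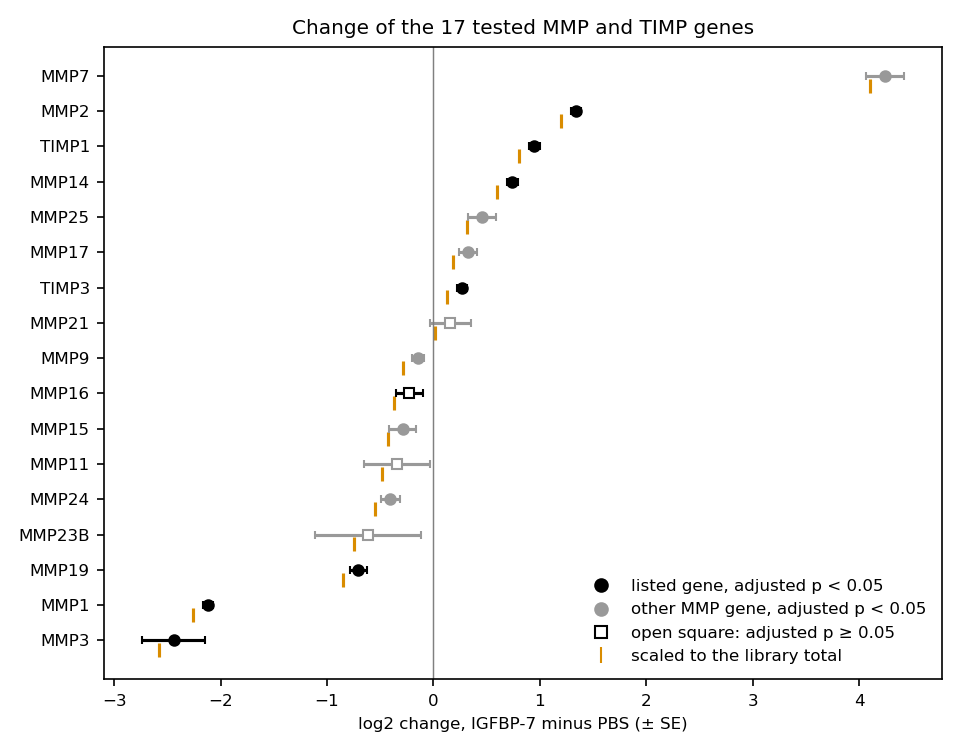
Log2 change, IGFBP-7 minus PBS, of the 17 tested MMP and TIMP genes with limma's SE; black marks the 8 tested genes of the list, grey the 9 other MMP genes, open squares an adjusted p of at least 0.05, and the orange tick the value after scaling to library totals. MMP3 (-2.44) and MMP1 (-2.12) lie at the lower end and MMP7 (4.24) and MMP2 (1.34) at the upper end, and no called gene changes side under the other scaling.

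Among the 16 other MMP and TIMP genes with a row, 9 could be tested: 3 rose, 3 fell and 3 missed the threshold. The 6 of 9 that changed are near the 60.6% of all tested genes. Besides MMP7, the membrane-anchored MMP17 and MMP25 rose, by 0.32 ± 0.08 and 0.46 ± 0.13 on the log2 scale. MMP17 averaged 960 ± 40.1 normalized counts with IGFBP-7 and 767 ± 17.7 with PBS, and its call was lost with scaling to the library total (limma adjusted p = 0.0584). MMP24, a membrane-type MMP, averaged 650 ± 30.9 with IGFBP-7 and 860 ± 37.4 with PBS, a log2 change of -0.40 ± 0.09. MMP15, another membrane-type MMP, had a log2 change of -0.29 ± 0.13 (limma adjusted p = 0.0458). That call was lost without IGFBP-7 replicate 2, PBS replicate 1 or PBS replicate 2, where the change was -0.19, -0.22 and -0.27. MMP9, which encodes gelatinase B, averaged 3921 ± 267 and 4336 ± 328, and its groups overlapped. Its log2 change of -0.14 ± 0.06 (limma adjusted p = 0.0309) lost the call without IGFBP-7 replicate 2 or 3 or PBS replicate 1 or 3, where it was -0.10, -0.14, -0.09 and -0.14. MMP11, MMP21 and MMP23B did not pass, and MMP23B has a near-identical copy that could take part of its reads.

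Levels of different genes were compared per kilobase of annotated exon (union of the exons in GENCODE 29), since a longer transcript gives more reads. These lengths need not match the isoforms that LX-2 cells use, so the order is approximate. With IGFBP-7 the order of normalized counts per kilobase was TIMP1 (16438 ± 1463), MMP2 (4322 ± 101), TIMP3 (2854 ± 219), MMP14 (2531 ± 87.7), MMP1 (2320 ± 66.4), MMP19 (183 ± 12.4), MMP16 (30.3 ± 5.59), MMP3 (12.1 ± 5.29) and MMP10 (6.14 ± 2.37). With PBS it was MMP1 (10066 ± 544), TIMP1 (8487 ± 306), TIMP3 (2358 ± 60.4), MMP2 (1705 ± 58.3), MMP14 (1512 ± 83.1), MMP19 (298 ± 14.6), MMP3 (65.5 ± 15.4), MMP16 (35.2 ± 4.41) and MMP10 (1.54 ± 1.42). The ranges of neighbours in these orders did not overlap in either group, and MMP1 ranked 5 of 9 with IGFBP-7 and 1 of 9 with PBS.

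The makeup of MMP transcripts differed accordingly. Of the summed level per kilobase of the 22 MMP genes with a row, MMP1 made up 19.3% ± 0.112 with IGFBP-7 and 62.2% ± 1.07 with PBS (SD, n = 3 each). MMP2 made up 35.9% ± 0.321 and 10.6% ± 0.703, and MMP14 21.1% ± 0.576 and 9.35% ± 0.337. MMP9 held 13.95% ± 0.639 with IGFBP-7 and 11.5% ± 0.436 with PBS although its own level was not higher, and MMP7 held 2.56% ± 0.310 and 0.0994% ± 0.0232. The sum itself was 12023 ± 322 normalized counts per kilobase with IGFBP-7 and 16173 ± 670 with PBS. That of TIMP1 and TIMP3 was 19292 ± 1644 and 10846 ± 324. These sums and shares describe the libraries and were given no test.

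**Figure D3:**
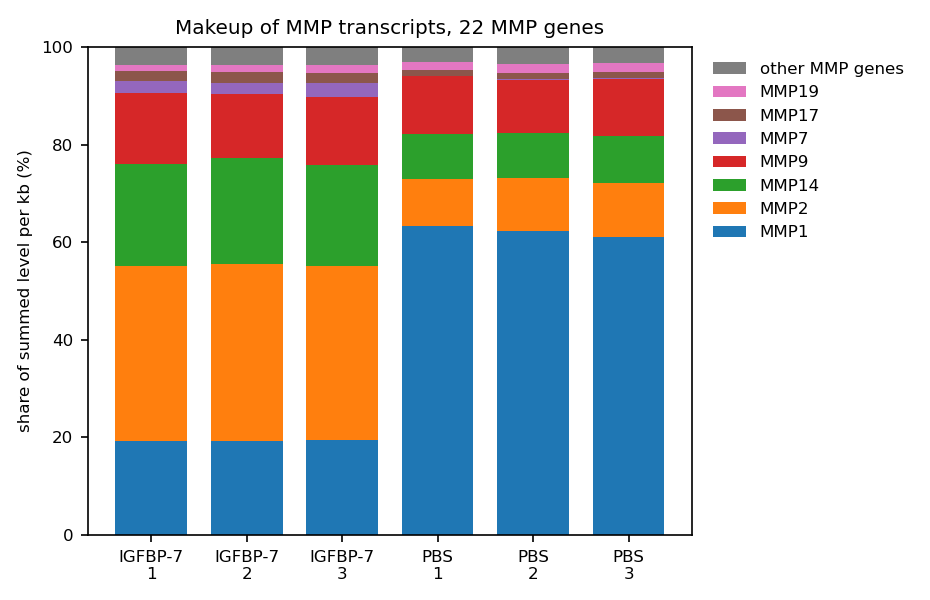
Share in percent of the summed normalized counts per kilobase of 22 MMP genes, for the 3 IGFBP-7 libraries (left) and the 3 PBS libraries (right); the segments of a bar add to 100%. MMP1 takes 19.2% to 19.4% of each IGFBP-7 bar and 61.1% to 63.2% of each PBS bar, and MMP2 35.7% to 36.3% and 9.75% to 11.02%.

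Ratios of genes within a library were taken on normalized count + 1, so the scaling of the libraries cancels for high genes but not fully for low ones such as MMP3 and MMP10. The log2 ratio of MMP1 to TIMP1 was -2.48, -2.34 and -2.58 with IGFBP-7, against 0.63, 0.59 and 0.57 with PBS. The ratio was thus 8.37-fold lower with IGFBP-7, and the groups did not overlap. The ratio of MMP3 to TIMP1 was 10.5-fold lower. MMP2 rose by more than TIMP1: the log2 ratio of MMP2 to TIMP1 was -0.27, -0.10 and -0.37 with IGFBP-7 and -0.74, -0.60 and -0.57 with PBS, a difference of 0.39. MMP14 rose by less than MMP2, with a log2 ratio of -0.92 ± 0.03 with IGFBP-7 and -0.32 ± 0.09 with PBS, and TIMP1 rose by more than TIMP3, with 0.95 ± 0.07 and 0.27 ± 0.06 (SD, n = 3 each). The ratio of MMP16 to MMP14 was 1.96-fold lower with IGFBP-7 and that of MMP19 to TIMP3 1.97-fold lower.

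The log2 ratio of MMP1 to MMP3 was 7.55 ± 0.59 with IGFBP-7 and 7.22 ± 0.35 with PBS, and there the groups overlapped (exact permutation test, two-sided, p = 0.5). In the other 9 of the 10 ratios computed the groups did not overlap, and each gave p = 0.1, the smallest that an exact two-sided test of 3 against 3 libraries can give, or 0.111 after Benjamini-Hochberg adjustment over the 10. None of the ratios could therefore pass a threshold of 0.05. The ratio of MMP10 to MMP3 was 4.39 higher on the log2 scale, but it rests on the few fragments of MMP10 and was 3.31 with a pseudocount of 5 and 3.56 without PBS replicate 1, which had 0 fragments.

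**Figure D4:**
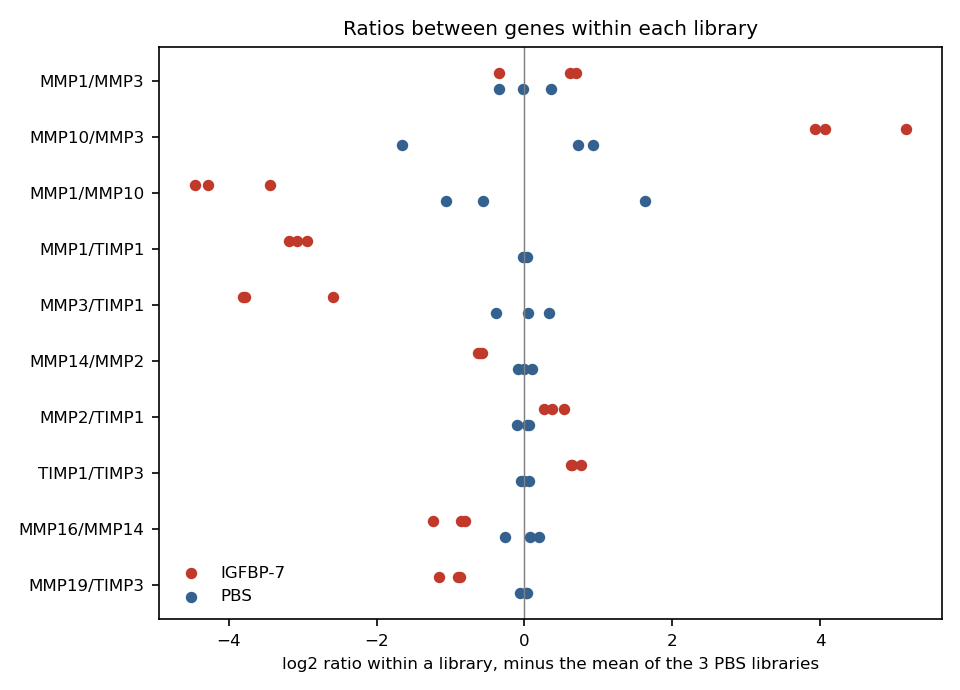
Log2 ratio of each pair of genes within a library, drawn relative to the mean of the 3 PBS libraries; red points are IGFBP-7 libraries and blue points PBS libraries. MMP1/MMP3 is the pair whose groups overlap, and MMP1/TIMP1 is 3.07 lower with IGFBP-7.

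The genes whose log2 values tracked MMP1 most closely over the 6 libraries were RIPOR3, the pattern-recognition gene PTX3 and the plasminogen activator inhibitor gene SERPINB2, with Pearson correlations of 0.9999, 0.9998 and 0.9997. RIPOR3 averaged 312 ± 19.2 with IGFBP-7 and 2255 ± 170 with PBS. For MMP2 they were TPM1-AS, the transcription factor gene BHLHE40 and DCBLD1, at 0.9999, 0.9998 and 0.9997. Such values come easily, because the 6 points are 2 groups: 478 genes correlated with MMP1, and 530 with MMP2, above 0.99.

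Lists of genes that act with MMPs and TIMPs were read from the same fit. Not every listed gene had a row: 13 of 19 AP-1 and ETS factors, 8 of 12 cofactors and 9 of 14 collagen-degrading genes did. Counts and medians cover the tested genes only. Among genes of precursor activation and the plasminogen system, 6 of 10 tested genes rose and 1 fell, the other 3 not passing, so that 7 of 10 changed beside 60.6% of all tested genes. Their median log2 change was 0.60, beside 0.02 for all tested genes. SERPINE2, which encodes an inhibitor of serine proteases, rose by 1.76 ± 0.04 and HTRA1, a secreted serine protease gene, by 1.05 ± 0.06, while SERPINB2 fell to 378 ± 29.4 with IGFBP-7, against 8867 ± 584 with PBS. Scaled to library totals, 6 were higher and 2 lower.

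Of 8 cofactors, inducers and surface partners tested, 3 rose and 5 fell, with a median of -0.31, beside 31.3% higher, 29.2% lower and a median of 0.02 for all tested genes; the same shares and median stand beside each list that follows. SDC1, the syndecan gene, rose by 1.05 ± 0.04, the integrin gene ITGAV by 0.87 ± 0.05 and ITGB1 by 0.62 ± 0.04. CLDN1, a claudin gene, had a log2 change of -2.23 ± 0.20, the caveolin gene CAV1 one of -0.96 ± 0.04 and CD63, which encodes a tetraspanin that binds TIMP1, one of -0.48 ± 0.04 (limma adjusted p = 8.69e-15). Of 7 non-TIMP inhibitors and clearance receptors tested, 5 rose, 1 fell and RECK did not pass. The median was 0.53. The 5 include PCOLCE and PCOLCE2, and the inhibitor gene A2M was too low to test, so the count is not of MMP inhibitors alone. THBS1, the thrombospondin gene, rose by 1.90 ± 0.04, PCOLCE2, which encodes an enhancer of procollagen processing, by 1.23 ± 0.23, and LRP1, which encodes an endocytic receptor that clears MMPs and TIMPs, by 0.74 ± 0.04. Scaled to library totals, 5 were higher and 2 lower.

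Other collagen-degrading proteases and uptake genes showed both directions: 4 of 9 rose, 4 fell and CTSK, the cathepsin K gene, did not pass. FAP, which encodes a fibroblast serine protease, averaged 2376 ± 53.5 with IGFBP-7 and 352 ± 79.0 with PBS, a rise of 2.78 ± 0.10 on the log2 scale. MRC2, which encodes the collagen uptake receptor Endo180, averaged 37048 ± 832 and 11886 ± 500, and ADAM12 rose by 2.06 ± 0.13. The lysosomal protease gene CTSD had a log2 change of -0.56 ± 0.04, the serine protease gene DPP4 one of -0.93 ± 0.20 and ADAM9 one of -0.47 ± 0.04.

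AP-1 and ETS factors, whose binding motifs are known in the MMP1 and MMP3 promoters, showed both directions as well: 5 of 12 rose, 4 fell and 3 missed the threshold, or 4 rose and 5 fell when libraries were scaled to their totals. FOSL1 averaged 3086 ± 146 with IGFBP-7 and 12168 ± 530 with PBS, a log2 change of -1.98 ± 0.05. FOSL2 was at -0.93 ± 0.05 and ETV1 at -0.77 ± 0.12, whereas JUNB rose by 2.80 ± 0.06, FOSB by 1.06 ± 0.20 and MAFK by 0.96 ± 0.07. Matrix substrates moved mostly one way: 14 of 15 tested rose and DCN did not pass. Their median was 1.42. COL5A1 averaged 73632 ± 2783 with IGFBP-7 and 12285 ± 371 with PBS, and the fibronectin gene FN1 and the proteoglycan gene BGN rose by 2.40 ± 0.04 and 2.39 ± 0.13. With quantile normalization the change of FN1 was 1.154.

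**Figure D5:**
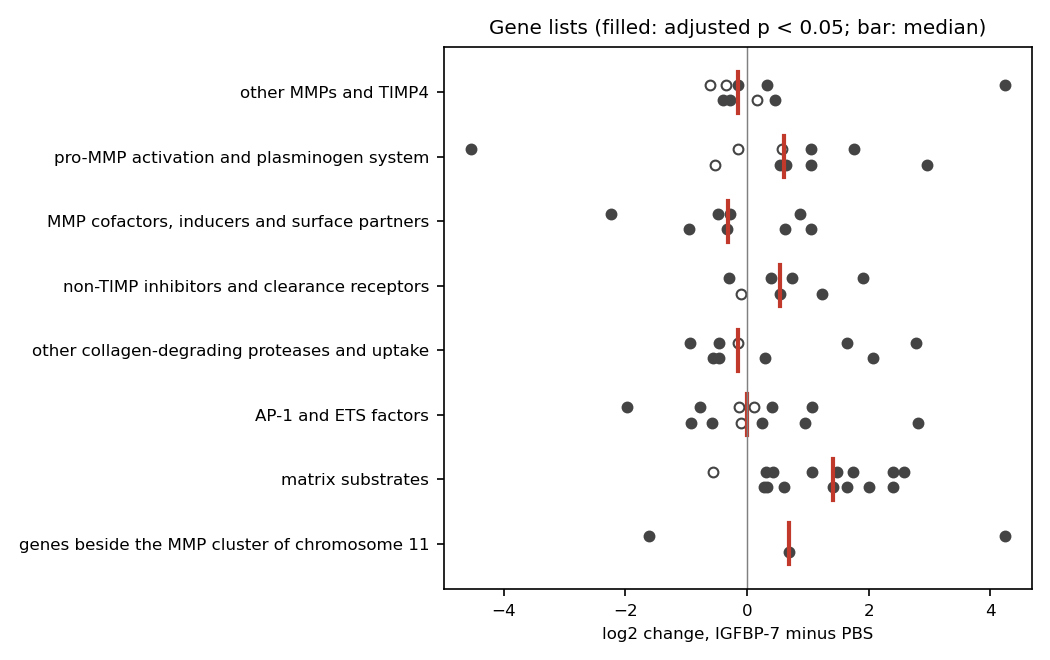
Log2 change, IGFBP-7 minus PBS, of each tested gene in 8 lists of genes around the MMPs; filled points have a limma adjusted p under 0.05, open points do not, and the bar is the list's median. The median of the matrix substrates is 1.42 and that of the AP-1 and ETS factors 0.00, with members on both sides of 0 among these factors.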

How the data were processed

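RNA was sequenced from 6 LX-2 libraries, prepared from polyadenylated RNA and, per the labels' protocols, a strand-keeping kit, and grouped by the sample titles. The deposited table holds normalized counts per gene, per the file headers, which the authors left as a linear signal. The tools named, per the submitters' processing notes, are STAR, Subread, featureCounts and DESeq2, with no role or version. Build, annotation and strand setting: not given in the sources used here. Within each library 100% of the values were whole multiples of 1 step, within 0.01 of a step, so whole reads could be recovered. Of nonzero read counts 99.6% were even, and 2 reads were taken as 1 fragment. Per-sample columns left unused numbered 0. Replicate pairs differed by more than sampling noise (chi-square per degree of freedom 5.10 to 6.93), and 6 libraries were counted.

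Because the values are normalized, limma-trend (limma 3.58.1 in R 4.3.3) was run on log2(normalized count + 1) with no covariate, as IGFBP-7 minus PBS, two-sided, over the 11872 genes whose mean reached 10. P-values were adjusted by Benjamini-Hochberg and called under 0.05. Changes are on that log2 scale, which understates those of low genes. The fit was also run on simulated counts in which few genes changed. That run cannot show how the fit or the scaling behaves where most tested genes change. edgeR 4.0.16 (quasi-likelihood, TMM) and DESeq2 1.42.0 on recovered reads were alternatives: edgeR called 3541 genes higher and 3562 lower, DESeq2 3572 and 3536, and the fit reported here 3721 and 3471. Ratios were compared with exact permutation tests in SciPy 1.17.1. Counting intervals are exact binomial at 95% and, like the floor of 3 fragments, take in counting error alone, since PCR copies of a molecule were not marked.

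The genes of the family, the gene lists and the tests were chosen with earlier results of these data known. Named are the genes of the family, genes overlapping them, up to 3 rises and 3 falls of largest change per list, and the 3 genes most correlated with MMP1 and with MMP2. For 2 list genes the rule names, single values are not reported here; the lists' counts, medians and plot include them. BIRC3 and DCUN1D5 are named by that rule, from the list of genes beside the chromosome 11 cluster. The markers given were chosen after their values were seen.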

Additional observations from a re-analysis of the deposited data

How the results depend on the processing

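The direction and call of MMP1, MMP2, MMP3, MMP14, MMP19, TIMP1 and TIMP3 were kept under each alternative that tested them (other scalings, edgeR, DESeq2, pseudocounts of 0.5 and 5, other filters, a replicate block and leaving out each library). MMP3 was not tested with a filter at a mean of 100. Genes of the list called higher numbered 4 to 5 and lower 2 to 4, the 5 including MMP10 without a filter and the 4 including MMP16. Scaling to the library total reduced the genes called higher to 2432, against 3721. Leaving out each library in turn gave 3398 to 3619 higher and 3176 to 3308 lower. Among the other 45 genes tested under the alternatives, 3 (MMP9, MMP15 and MMP17) lost a call, MMP15 also with quantile normalization (adjusted p = 0.0926) and without a filter (0.0669).

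Same-numbered libraries did not deviate together (correlations of -0.0452, 0.0117 and -0.0491), so no pairing by number was visible. These values cannot show whether same-numbered libraries were prepared together. A replicate block gave 3715 genes higher and 3462 lower, and 4 and 3 of the list. No ratio changed direction with another pseudocount or a library left out. With those settings MMP1/TIMP1 ranged from -3.13 to -3.01 and MMP1/MMP3 from 0.14 to 0.66. Ratios with TIMP2 were not run. With 3 libraries a group, MMP10 and the other genes of a few fragments are limited by depth.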
